A study of Homo sapiens with 26 samples.

Results

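The early and late hours of a circadian cycle were compared in human cells kept in acidic medium, and the question put to the data was whether day 1 and day 2 of the recording showed the same half-day difference. The members were the 12 libraries at pH 6.3 taken from 4 to 48 h, out of 26 libraries in the series. The early half-days held 4, 8, 12, 28, 32 and 36 h, and the late half-days held 16, 20, 24, 40, 44 and 48 h, 6 libraries each. Day 1 covered 4 to 24 h and day 2 covered 28 to 48 h, with 3 early and 3 late libraries in each day. The 52 h libraries were left out. The 12 libraries of the same hours at pH 7.4 served for comparison.

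All libraries came from U2OS Arntl::dLUC cells, a human osteosarcoma line with a luciferase reporter for the clock gene ARNTL, grown in sealed dishes in buffered DMEM containing serum, PIPES, HEPES and the glucocorticoid dexamethasone, which is in common use to set cultured cells to one clock phase. Both media carried the same additions and differed in the labels by pH. Polyadenylated RNA was sequenced, 1 library per pH and hour. No hour had a replicate, so the spread used in every test is a spread between hours, and p-values measure only that spread. With day as a block, it also holds any disagreement between the days in the half-day difference. In the comparison of the media, it is the spread of the differences within hours. Dishes were prepared as 2 staggered sets, one collected from 28 h on and the other up to 24 h, and dishes 24 h apart were collected in the same session. Day and dish set therefore cannot be told apart, and neither can half-day and collection session, since the early hours came from 3 sessions and the late hours from the other 3.

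In the mammalian clock, ARNTL (also called BMAL1) pairs with CLOCK or NPAS2 and switches on genes that carry the E-box sequence in their promoters, among them PER and CRY genes, NR1D1 and NR1D2, and DBP and TEF. PER and CRY proteins then inhibit that pair, while NR1D1 and NR1D2 repress ARNTL and RORA activates it, so that ARNTL RNA and E-box-driven RNAs run in opposite phase. A gene that follows a cycle close to 24 h should hold the same sign of a half-day difference on successive days if its peak lies well inside a half-day. A peak near the border between half-days leaves a small difference of either sign, so a small or changing difference does not show that a cycle is absent. A gene that answers once to the start of the culture need not hold its sign, and a steady drift through both days also gives the same sign.

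FPKM values, which count fragments relative to transcript length and library total, were compared as log2(FPKM + 1). A gene was tested where its average across the 12 libraries reached 1 FPKM, which left 11592 genes, and a gene is said to have passed, or to have been called, at an adjusted p (limma, Benjamini-Hochberg) under 0.05. Depth, estimated from the smallest steps of the values, ran from 20.0 to 35.2 M (mega) fragments in the libraries other than 8 h and stood at 11.3 M there. Any whole multiple of such an estimate gives whole fragments too, so these figures compare the libraries with each other and do not fix the absolute depth. Base composition also varied between libraries: the correlation across genes between GC content and the deviation from the mean was 0.65 at 20 h, -0.46 at 28 h, -0.37 at 32 h and -0.45 at 40 h, and lay between -0.25 and 0.29 in the others. Its part in the results was not tested beyond a fit with that trend removed. Of the 10 mesenchymal and osteosarcoma markers 8 were measured at or above the filter, while all 6 endothelial markers stayed under 1 FPKM in each of the 12 libraries and 7 of 10 leukocyte markers did so. Of 10 epithelial markers, 4 were at or above the filter and 1 stayed under 1 FPKM throughout, and their summed level was 157 to 332 FPKM in the early and 153 to 291 in the late hours.

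ARNTL RNA (chromosome 11, 13276652 to 13387266, plus strand, hg38) stood low in the late hours of both days in acidic medium, the reverse of pH 7.4. It measured 15.3, 17.2 and 16.5 FPKM at 4, 8 and 12 h, 7.93, 8.80 and 9.10 at 16, 20 and 24 h, 23.5, 22.8 and 20.6 at 28, 32 and 36 h, and 15.4, 16.0 and 10.97 at 40, 44 and 48 h. The 3 late values lay under all 3 early values on each day, although the late values of day 2 overlapped with the early values of day 1. The mean was 19.3 ± 3.47 FPKM (SD, n = 6) in the early hours and 11.4 ± 3.52 in the late hours, a late minus early difference of -0.74 (SE 0.12) on the log2 scale, with adjusted p = 0.063. The difference was -0.85 on day 1, which passed (adjusted p = 0.0027), and -0.64 on day 2 (unadjusted p = 0.0014, adjusted p over 0.05 as for every gene that day). At pH 7.4 the same hours gave 21.2, 14.8 and 22.3 FPKM early on day 1 against 33.1, 43.1 and 38.5 late, and 18.8, 10.4 and 11.7 early on day 2 against 28.6, 33.1 and 36.4 late, a difference of +1.10. The difference between the media in the half-day difference, taken over the 12 within-hour pairs, was -1.84 and passed (adjusted p = 0.0042).

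**Figure D1:**
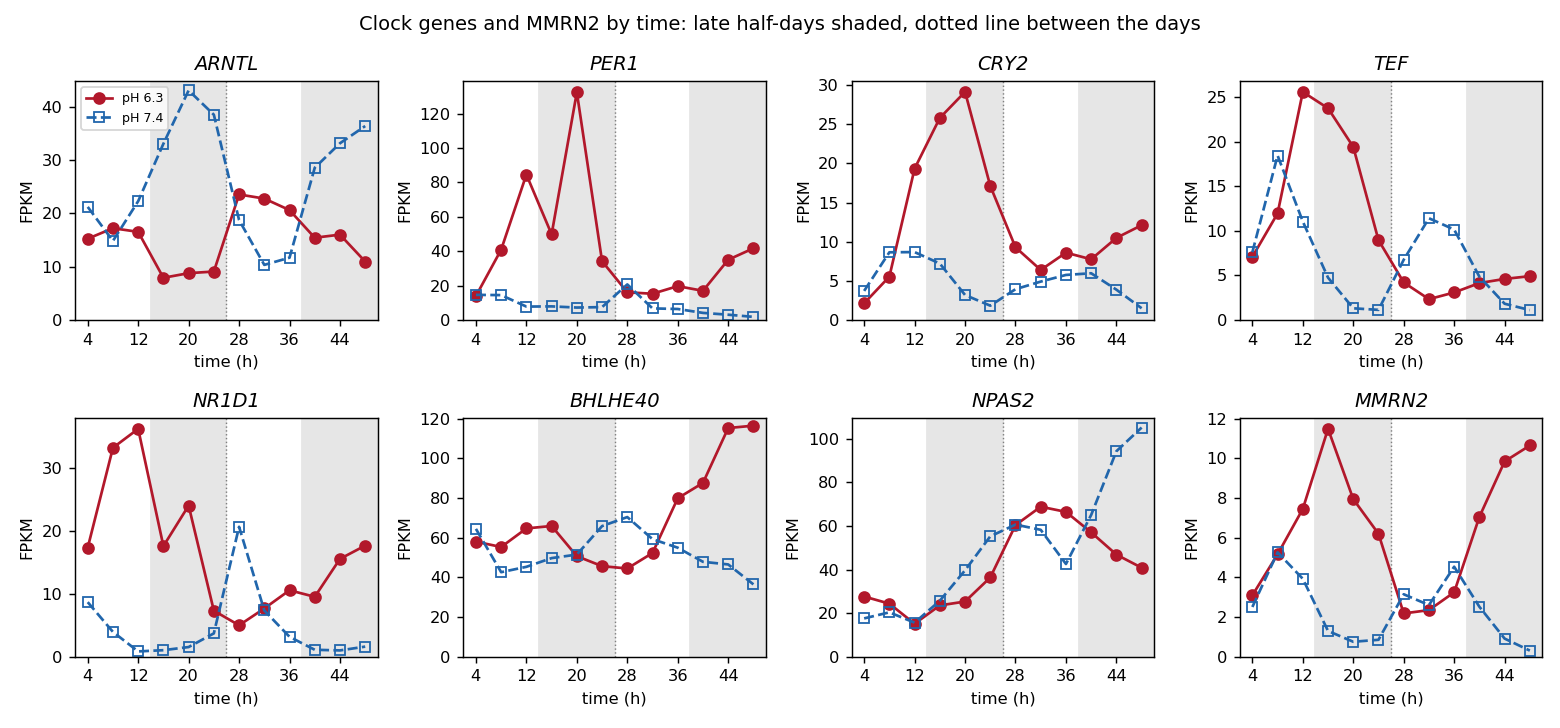
FPKM against hours in culture for 7 clock genes and MMRN2 at pH 6.3 (filled circles) and pH 7.4 (open squares), 1 library per point, with the late half-days shaded and a dotted line between the days. ARNTL lies low in both shaded spans at pH 6.3 and high in both at pH 7.4, while MMRN2 does the opposite.

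MMRN2 (chromosome 10, 86935540 to 86969481, minus strand, hg38), which encodes an extracellular matrix glycoprotein of blood vessels, was the only other gene that passed in the comparison of the media. Its level was 3.10, 5.16 and 7.45 FPKM at 4, 8 and 12 h, 11.5, 7.95 and 6.20 at 16, 20 and 24 h, 2.18, 2.35 and 3.25 at 28, 32 and 36 h and 7.05, 9.85 and 10.7 at 40, 44 and 48 h. Early and late values overlapped on day 1 and did not overlap on day 2. At pH 6.3 the late hours stood 1.07 higher on the log2 scale and at pH 7.4 it stood 1.18 lower, a difference of 2.25 (adjusted p = 0.029). These 2 genes make 0.0173% of the genes tested against pH 7.4. MMRN2 did not pass with a pseudocount of 0.1, with no filter on low values or without 4, 8, 16, 20, 24, 28, 32, 36 or 44 h (values of 2.16 to 2.35), whereas ARNTL passed in each of those fits. Without 8 h and 20 h together neither passed (-1.74 and 2.22).

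The promoters of ARNTL and of 3 clock genes with the opposite sign at pH 7.4 (PER1 -1.02, PER3 -1.01 and TEF -1.84, against 1.10) are shown because the loop acts through elements in them. Each of those 3 holds a match, which other clock genes of the same sign do not all do. The following lines give the 250 bases before the transcription start (RefSeq, GRCh38.p14; first entry of each gene), with matches on either strand to the E-box CACGTG, the cAMP-response core TGACGT or the D-box words TTATGTAA and TTATGCAA in capitals: ARNTL chr11:13277540-13277789 on the plus strand, PER1 chr17:8152405-8152654 on the minus strand, PER3 chr1:7784041-7784290 on the plus strand, TEF chr22:41367205-41367454 on the plus strand.

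ARNTL: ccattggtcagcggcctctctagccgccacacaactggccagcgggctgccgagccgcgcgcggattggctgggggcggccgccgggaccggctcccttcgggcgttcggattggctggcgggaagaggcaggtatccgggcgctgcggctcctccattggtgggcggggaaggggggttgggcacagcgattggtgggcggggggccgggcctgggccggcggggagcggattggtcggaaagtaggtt
PER1: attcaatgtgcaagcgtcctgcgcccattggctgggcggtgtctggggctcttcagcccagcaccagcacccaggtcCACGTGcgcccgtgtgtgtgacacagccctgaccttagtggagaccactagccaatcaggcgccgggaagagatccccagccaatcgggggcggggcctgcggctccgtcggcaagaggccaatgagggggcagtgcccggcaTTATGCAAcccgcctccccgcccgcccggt
PER3: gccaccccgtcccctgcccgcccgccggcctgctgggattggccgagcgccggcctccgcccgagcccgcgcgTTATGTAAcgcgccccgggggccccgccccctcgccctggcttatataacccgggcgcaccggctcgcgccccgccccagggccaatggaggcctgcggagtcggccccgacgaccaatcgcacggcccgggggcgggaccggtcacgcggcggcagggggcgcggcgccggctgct
TEF: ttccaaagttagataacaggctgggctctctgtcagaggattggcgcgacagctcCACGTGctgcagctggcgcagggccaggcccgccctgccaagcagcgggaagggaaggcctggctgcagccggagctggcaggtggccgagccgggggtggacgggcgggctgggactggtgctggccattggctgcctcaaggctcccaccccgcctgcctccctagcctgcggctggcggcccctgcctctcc

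PER1 held an E-box at -173 and a D-box at -30 from the start, PER3 a D-box at -177 and TEF an E-box at -195, and no capitals appear in the ARNTL window. Elements bound by NR1D1, NR1D2 or RORA were not searched for. A window with no capitals may therefore still hold an element of the loop. Over the 35116 RefSeq promoter windows (250 bases before to 50 after the start), 7.26% held CACGTG, 7.98% TGACGT and 1.71% a D-box word. Among the 19 clock genes with a window, 6 held CACGTG (PER1, NR1D2, TEF, BHLHE40, BHLHE41 and CIART), 2 held TGACGT (NR1D2 and HLF) and 3 a D-box word (PER1, PER3 and NR1D2). Of the tested clock genes not shown that were negative at pH 7.4, NR1D1 (-1.32), PER2 (-0.71), DBP (-0.57), CRY2 (-0.56) and CRY1 (-0.13) held none of these words. NR1D2 (-1.16), BHLHE41 (-0.31) and BHLHE40 (-0.17) held CACGTG. The contrast of the windows shown with that of ARNTL therefore depends on the genes picked.

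Of the 20 core clock genes listed, 16 were at or above the filter and the other 4 were under it. None of the 16 passed for the half-day difference over both days. On day 1, CRY2 rose and ARNTL fell, and 14 did not pass (CRY2 did not pass without 8 h, without 20 h or with no filter). Of all genes, 17.1% were called higher and 12.9% lower late on day 1. The median late minus early difference of the 16 was 0.26 on day 1 and 0.34 on day 2, beside 0.066 and 0.018 for all genes, and 10 of the 16 had the same sign on both days. The day 1 median rested on a few libraries: it was -0.045 without 4 h, 0.075 without 16 h and 0.14 without 8 h and 20 h.

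Among the activators, CLOCK and NPAS2 did not share the pattern of ARNTL. CLOCK went from 38.7 FPKM at 4 h to 15.2 at 16 h and then held between 26.9 and 32.3 FPKM through day 2, which gave -0.50 on day 1 and 0.06 on day 2. NPAS2, which can take the place of CLOCK, held between 15.2 and 36.4 FPKM on day 1 and between 40.9 and 68.9 on day 2, where the late values lay wholly below the early values (-0.44, unadjusted p = 0.065). Its day 1 difference was 0.35, so the days opposed each other in sign without passing a test of that opposition (adjusted p = 0.11).

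The repressors of the PER and CRY families had positive late minus early differences on both days. Those of PER3 on day 1 and of CRY1 and CRY2 on day 2 were smaller than their errors. PER1 measured 14, 40.9 and 84.6 FPKM early and 49.8, 132 and 34.2 late on day 1, and 16.1, 15.3 and 19.7 early and 17.0, 35.1 and 41.7 late on day 2. Its differences were 0.72 and 0.75, with wide errors (SE 0.57 each). CRY2 measured 2.14, 5.55 and 19.3 FPKM early and 25.8, 29.1 and 17.1 late on day 1, a difference of 1.71 (adjusted p = 0.020), against 9.29, 6.40 and 8.61 early and 7.76, 10.5 and 12.1 late on day 2, a difference of 0.28. PER2, PER3 and CRY1 also had positive signs on both days, with averages of 0.61, 0.31 and 0.51 that did not pass. On day 1 and day 2 they had 0.72 and 0.51 for PER2 (SE 0.45 each), 0.093 and 0.53 for PER3 (SE 0.24 each), and 0.76 and 0.26 for CRY1 (SE 0.40 each). In all 5 genes both half-day means of day 1 exceeded those of day 2, with the highest library at 12, 16 or 20 h.

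The nuclear receptors that repress ARNTL had opposite signs on the 2 days. NR1D1 measured 17.3, 33.2 and 36.2 FPKM early and 17.6, 24.0 and 7.32 late on day 1 (-0.86), and 5.00, 7.67 and 10.6 early and 9.52, 15.5 and 17.7 late on day 2 (0.81). The day 2 minus day 1 difference of 1.68 did not pass (adjusted p = 0.067). NR1D2 showed the same signs, -0.37 and 0.25. At pH 7.4 both had negative differences that did not pass, -1.32 and -1.16, with NR1D1 between 1.05 and 3.72 FPKM in late day 1 and between 1.01 and 1.61 in late day 2. RORA, an activator of ARNTL, lay between 5.88 and 12.9 FPKM with no half-day difference beyond its spread (0.15, SE 0.15).

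The output factors DBP and TEF, which bind the D-box, reached their highest value at 12 h in acidic medium and were lower by 24 h. DBP measured 18.6 FPKM at 12 h and 5.74 at 24 h, then 2.71 to 3.18 in early day 2 and 2.86 to 5.50 in late day 2. TEF measured 25.6 FPKM at 12 h and 8.97 at 24 h, then 2.35 to 4.22 in early day 2 and 4.15 to 4.92 in late day 2. The half-day differences of 0.33 and 0.35 were within their spread. At pH 7.4 TEF stood low late on both days (-1.84), which made its difference between the media 2.20, among the 4 most positive by the smallest p, without passing (adjusted p = 0.17). NFIL3, the D-box repressor, lay between 8.35 and 11.7 FPKM in early day 1 and between 25.2 and 30.01 from 28 h on, and had signs of 0.57 and -0.05.

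BHLHE40, a repressor that competes for the E-box, was the only clock gene that passed the test of the difference between the days. It measured 58.0, 55.3 and 64.7 FPKM early and 65.9, 50.7 and 45.7 late on day 1, where early and late values overlapped (-0.15), and 44.5, 52.3 and 79.8 early and 87.6, 115 and 116 late on day 2, where they did not (0.88). The day 2 minus day 1 difference was 1.02 (adjusted p = 0.037), and it did not pass without 8, 20, 24, 28, 32, 44 or 48 h or with no filter on low values. Its relative BHLHE41 had 0.45 and 0.39, the same sign on both days. Over all genes, 5.3% passed the test between the days as positive and 7.51% as negative.

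Over all genes, no gene passed for the half-day difference with day as a block, a called share of 0%, and the smallest adjusted p was 0.063. An unadjusted p under 0.05 was reached by 2696 genes, 23.3% of those tested, 1535 higher and 1161 lower late. That fit counts a disagreement between the days as spread. In a fit added after the data were seen, in which each half-day had its own mean and the 2 daily differences were averaged, 1325 genes passed (731 higher, 594 lower). Of these 1325, 1211 had also been called on day 1 alone, 271 had opposite signs on the 2 days, and 224 had the same sign with an unadjusted p under 0.05 on day 2. With GC trends removed 90 genes passed, and with collection session as a random block 311 passed. The correlation within sessions used in that block was negative (-0.162). A negative value narrows the error of the half-day difference for a given spread.

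The days agreed in sign in about as many genes as they opposed each other. The half-day difference had the same sign on both days in 5910 of the 11592 genes (51%), and across genes the 2 daily differences had a Pearson correlation of 0.0058, a description over genes that share libraries and are not replicates. The size of the differences also differed: the median absolute log2 difference was 0.36 on day 1 and 0.15 on day 2. On day 1, 3480 genes were called, 1986 higher late (17.1%) and 1494 lower (12.9%). The split was 1808 and 1789 under upper-quartile scaling, 1749 and 1792 after quantile normalization and 2203 and 2269 with GC trends removed. On day 2 none was called (0%). At an unadjusted p under 0.05, 387 genes stood higher late on day 2 (3.34%) and 475 lower (4.1%). Of the 3480 genes called on day 1, 1685 had the same sign on day 2 and 1795 the opposite one. Only 119 had the same sign with an unadjusted p under 0.05 on day 2, and 138 had the opposite sign with one.

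**Figure D2:**
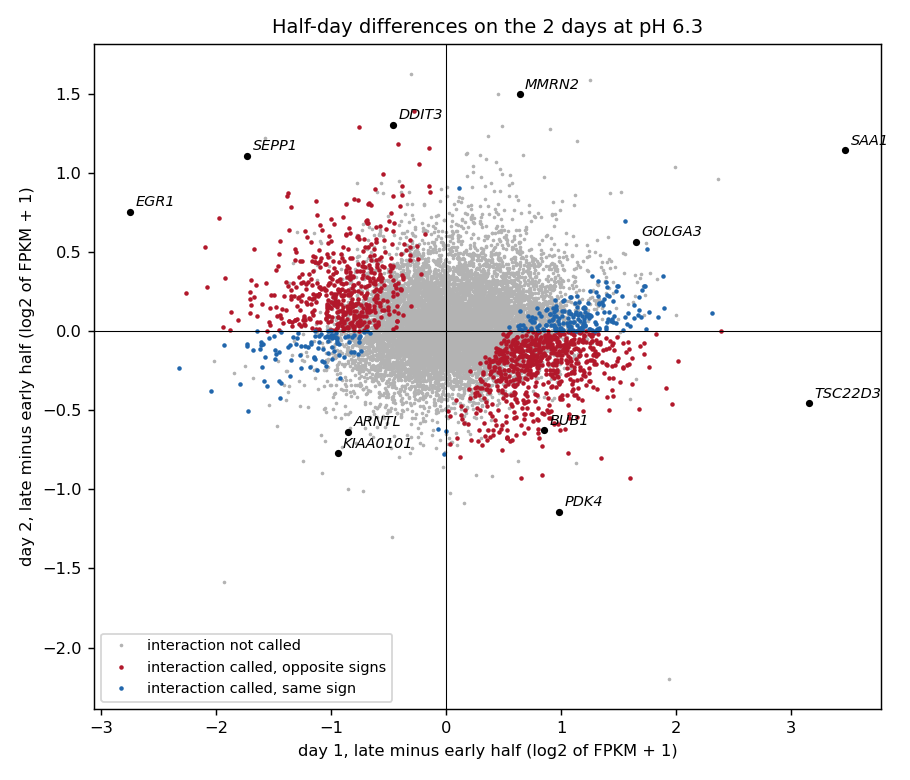
Late minus early difference on day 1 (horizontal) and day 2 (vertical) in log2(FPKM + 1) for each of 11592 genes at pH 6.3, coloured by the test of the difference between the days, with 11 genes labelled. The cloud is wider along day 1 than along day 2, and called genes of opposite sign fill the upper left and lower right.

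The 20 genes with the smallest p among those of the same sign on both days, 10 in each direction, were examined as the best case for agreement. None passed over both days (adjusted p between 0.063 and 0.069). They were chosen by that p and by their signs, so the values that follow describe the choice and are no test of agreement: all 20 were called on day 1, and 19 had early and late values that did not overlap on day 2, as had 2919 of all 11592 genes (25.2%). They were of 2 kinds. In 5 that were higher and 3 that were lower late the mean level turned back between the days, by any amount, and these are said to have returned. The return was small in some: the half-day means of ANP32E were 99.7, 60.6, 64.4 and 47.1 FPKM in order. In the others the mean level moved in 1 direction through all 4 half-days, 5 upwards and 7 downwards. The sign of a half-day difference is the same on both days for such a drift.

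Of the genes that returned, HIST2H2BE, a histone H2B gene, was the only one of the 20 whose 6 late values all lay above its 6 early values. It measured 3.31, 4.06 and 5.89 FPKM, then 13.7, 14.9 and 15.2, then 9.37, 8.97 and 10.5, then 15.0, 16.4 and 17.3 in the successive half-days, an average difference of 1.12 (SE 0.17). Over all genes, such separation of the 12 libraries was seen in 19 genes that were higher late (0.164%) and 33 that were lower (0.285%). HIST1H2AC showed the same course. Histone genes are near copies of each other, and reads can be split between them.

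PIK3IP1, an inhibitor of PI3-kinase signalling and a member of the FOXO target list, measured 4.65, 3.19 and 3.93 FPKM, then 7.64, 12.98 and 8.90, then 5.16, 5.61 and 8.34 and then 9.51, 13.5 and 14, a difference of 0.99 (SE 0.17). ENGASE, a cytosolic enzyme that removes N-glycans, and PPP1R3E, a glycogen-targeting subunit of protein phosphatase 1, followed the same order of half-days. ARSJ, an arylsulfatase, returned in the other direction: its early values of 29, 31.3 and 20.1 FPKM on day 1 were followed by 7.27 to 10.9 late, 10.3 to 13.5 early on day 2 and 6.75 to 7.58 late on day 2 (-1.04). ANP32E, a chaperone that removes a histone variant, gave -0.58.

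The drifting genes included several with large changes across the series. GOLGA3, a Golgi protein, went from 8.56 FPKM at 4 h to 98.5 at 48 h at pH 6.3 and stood between 8.74 and 19.5 at pH 7.4. CPNE7, a copine, was listed at 0 at 4 and 8 h and reached 14.4 FPKM at 48 h, with a highest value of 0.46 at pH 7.4. ARRDC4, an arrestin-domain gene driven by the glucose sensor MondoA, went from 1.05 to 11.2 FPKM and stood between 0.65 and 1.16 at pH 7.4. CTSB, the lysosomal protease cathepsin B, went from 298 to 1040 FPKM, but at pH 7.4 it also went from 270 to 657. SAT2, a polyamine acetyltransferase relative, was the fifth, with a difference of 0.65.

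The 7 genes that drifted downwards had the following levels. KIAA0101 (also known as PCLAF), a partner of the replication clamp, went from 474 FPKM at 4 h to 61.7 at 48 h. RRM2, the regulated subunit of ribonucleotide reductase, went from 270 to 77.9 FPKM, and MKI67, the proliferation marker Ki-67, from 56.2 to 20.1. ACTB, the beta-actin gene often used as a reference, went from 3029 to 854 FPKM at pH 6.3 and from 3245 to 2299 at pH 7.4. S100A2, NQO1 (an NRF2-driven quinone reductase) and CCT5 (a chaperonin subunit) had the same course. At pH 7.4, S100A2 went from 1548 FPKM at 4 h to 511 at 48 h, CCT5 from 509 to 267 and NQO1 from 90.7 to 67.9. KIAA0101 went from 384 to 270 there, RRM2 from 211 to 163 and MKI67 from 46.6 to 43.1. For the drifting genes a straight line in time was an alternative to the day block: with it the half-day difference of S100A2 turned from -0.61 to 0.12, and no gene passed.

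**Figure D3:**
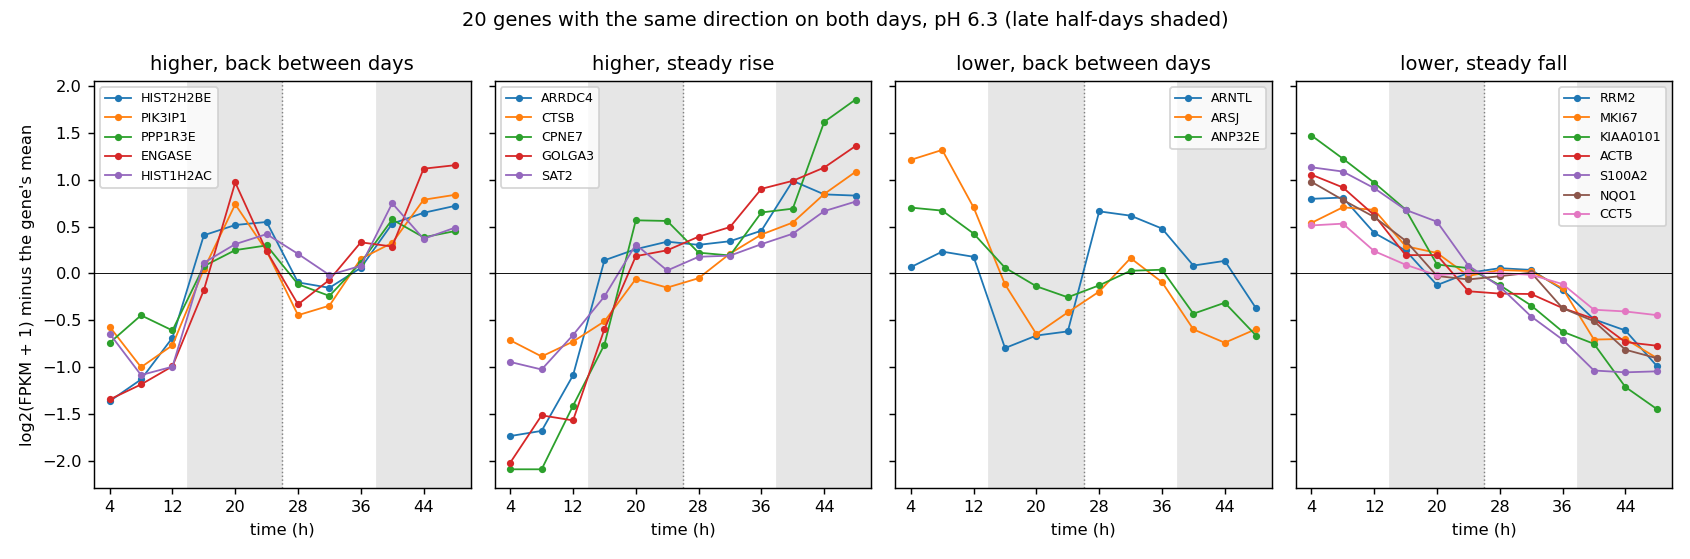
log2(FPKM + 1) minus each gene's mean over the 12 libraries against hours at pH 6.3 for the 20 genes with the smallest p among those of 1 sign on both days, in 4 panels by direction and course. The panels of genes that returned show levels whose mean turned back at 28 to 36 h, by little in some, and the other panels show levels that went on in 1 direction.

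All genes were sorted in the same way, by the signs of the steps between half-day means alone. Each gene falls into a class whatever the size of its steps, so the counts describe signs and are no test. Of the 11592, 1774 were higher (15.3%) and 1297 lower (11.2%) late on both days with a return between them, 1645 went up (14.2%) and 1194 down (10.3%) through all 4 half-days, and 2919 (25.2%) and 2763 (23.8%) had opposite signs. Among the 2696 genes with an unadjusted p under 0.05, 596 were higher and 457 lower late on both days with a return between them, 729 went up and 556 down through all 4 half-days, and 213 and 145 had opposite signs, a choice by p that favours genes of the same sign.

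The difference between the days itself passed in 1485 genes, 614 where day 2 was the more positive (5.3%) and 871 where it was the more negative (7.51%). The split was 809 and 684 under upper-quartile scaling, 703 and 725 after quantile normalization and 1170 and 1168 with GC trends removed. Opposite signs on the 2 days were present in 1206 of the 1485, 688 higher then lower and 518 lower then higher, and 279 had the same sign with unequal size. A choice by this test favours genes of opposite signs, so that count is no test of opposition. Over all genes, 25.2% were higher then lower and 23.8% lower then higher. Of the 1485, 1366 were called on day 1, and in 241 of the 1206 the day 2 difference reached an unadjusted p under 0.05, so the calls rest for the most part on a large day 1 difference beside a small one on day 2. Without 8 h and 20 h together limma called 0, with 3092 at an unadjusted p under 0.05, and leaving out 1 library gave between 273 (without 28 h) and 2840 (without 12 h).

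The most negative difference between the days among the named genes was that of TSC22D3, the glucocorticoid-induced leucine zipper gene. It measured 8.99, 59.6 and 223 FPKM early and 419, 497 and 456 late on day 1 (3.15), then 316, 235 and 224 early and 184, 204 and 171 late on day 2 (-0.46). The early and late values did not overlap on either day, in opposite directions, and the difference between the days was -3.61 (adjusted p = 0.040). It did not pass with no filter on low values, nor without any 1 of 8, 20, 24, 28, 32, 36, 40, 44 and 48 h. At pH 7.4 the gene stayed between 5.67 and 29.04 FPKM. ZNF226, a zinc-finger gene, also had early and late values that did not overlap on either day, 5.38 to 9.44 then 22.7 to 33.0 FPKM, and 31.7 to 32.7 then 20.6 to 27.5 FPKM. ERCC5, a DNA repair nuclease, went from between 13.7 and 33.0 FPKM to between 77.8 and 133 and then held between 141 and 156 FPKM all through day 2, so its opposite sign there is a difference of -0.0015. SMIM14, SORBS2 and ZNF287 completed the group, with differences between the days of -2.42, -2.21 and -2.16, the last of which did not pass without 8, 24, 28, 32, 44 or 48 h.

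On the other side EGR1, an immediate early transcription factor, measured 74.6, 11.5 and 5.26 FPKM early and 1.69, 1.36 and 2.06 late on day 1 (-2.75), and 5.08, 5.90 and 6.19 early and 9.61, 9.30 and 12.2 late on day 2 (0.75). SEPP1 (also called SELENOP), the plasma selenium carrier, measured 28.2, 19.3 and 15.0 then 8.60, 5.14 and 3.42 FPKM on day 1 and 2.60, 2.56 and 3.61 then 4.64, 9.28 and 9.20 FPKM on day 2, with no overlap on either day. DUSP2, a phosphatase of MAP kinases, ARAP2, TGFBI, a matrix protein induced by TGF-beta, and ADAMTS6 shared a steep fall over day 1. TGFBI went from 241 FPKM at 4 h to 24.3 at 24 h and then held between 14.4 and 21.0. The differences between the days of these 6 ran from 2.36 to 3.51, with adjusted p between 0.0073 and 0.025. EGR1 did not pass without 8, 24, 28, 32, 36, 44 or 48 h or with no filter, and DUSP2 did not pass without 28 h.

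A pair of genes outside the naming rule, chosen after their values were seen, had comparable differences on both days. PDK4, the kinase that shuts pyruvate dehydrogenase and a glucocorticoid target, measured 18.4, 21.0 and 24.8 then 39.5, 43.8 and 45.8 FPKM on day 1 (0.98), and 22.3, 21.8 and 15.5 then 9.28, 9.06 and 6.88 on day 2 (-1.14, unadjusted p = 2.1e-05, adjusted p = 0.17). The gene was chosen with these values in view, so its p-values describe the choice and are no test. RASSF9 measured 7.23, 7.74 and 4.63 then 2.33, 1.41 and 1.89 FPKM on day 1 (-1.38), and 2.01, 2.69 and 3.13 then 4.47, 5.13 and 7.40 on day 2 (0.87). In both genes early and late values did not overlap on either day. Over all genes, 652 had non-overlapping early and late values on both days in opposite directions (5.62%) and 509 in the same direction (4.39%).

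**Figure D4:**
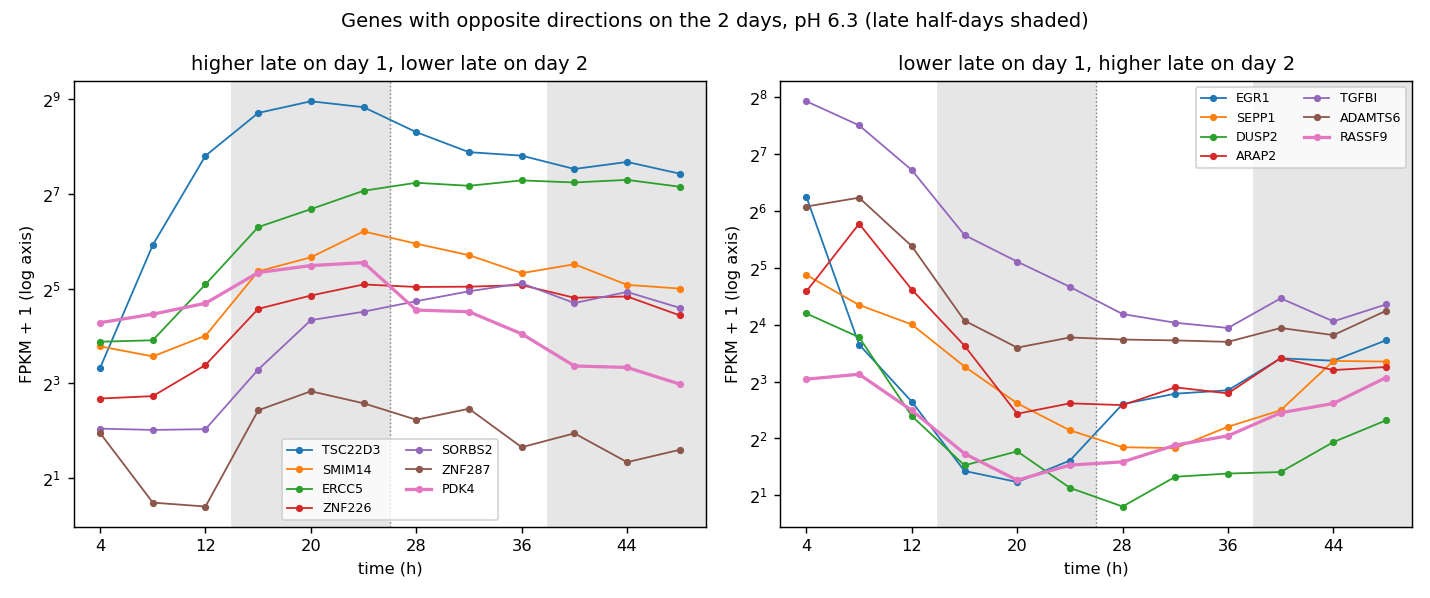
FPKM + 1 on a log axis against hours at pH 6.3 for the 6 genes named in each direction of the difference between the days, with PDK4 and RASSF9 drawn thicker and late half-days shaded. Most lines change steeply over day 1 and little over day 2, while PDK4 and RASSF9 turn between the days.

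Gene lists of known pathways showed where the 2 days parted. The G2/M list, 26 genes that act in late cell cycle and mitosis, had a median difference of 0.24 on day 1 and -0.63 on day 2, beside 0.066 and 0.018 for all genes. On day 1, 7 of the 26 rose (AURKA, BUB1, CCNB2, KIF20A, CDC25C, DLGAP5 and TTK), MKI67 fell and 18 did not pass. Of all genes, 17.1% were called higher and 12.9% lower that day. On day 2 none passed, but all 26 stood lower late with an unadjusted p under 0.05, beside 4.1% of all genes. The difference between the days passed in 19 of the 26, all negative, beside 7.51% of all genes. BUB1, a spindle checkpoint kinase, measured 62.0, 49.5 and 57.8 then 90.6, 99.0 and 119 FPKM on day 1, and 129, 117 and 112 then 87.8, 82.8 and 62.2 on day 2. CCNB1, cyclin B1, measured 335, 408 and 449 then 507, 409 and 441 FPKM on day 1, where early and late values overlapped, and 501, 476 and 438 then 356, 331 and 261 on day 2, where they did not. Examples from lists, other than the member with the smallest p in each, were chosen after their values were seen. The 7 rises on day 1 became 3 without 8 h or without 24 h and 4 under upper-quartile scaling. The 19 negative calls became 6 to 8 without 8, 24, 28, 32 or 48 h, 11 without 44 h and 0 without 8 h and 20 h together. On day 2, 21 to 26 members stood lower at an unadjusted p under 0.05 whichever single library was left out.

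The G1/S list, 26 genes of DNA replication and S-phase entry, had -0.63 on day 1 and -0.10 on day 2. On day 1, 14 of the 26 fell and none rose, beside 12.9% and 17.1% of all genes, and 12 did not pass. The difference between the days passed in 7, all positive, beside 5.3% of all genes. Those 7 became 2 without 8, 28 or 48 h, 12 without 12 h and 0 without 8 h and 20 h together, while the 14 stayed between 12 and 19 with 1 library left out. E2F1, a transcription factor of S-phase entry, measured 21.5, 15.6 and 11.1 then 4.55, 5.84 and 3.13 FPKM on day 1, and held between 1.72 and 2.84 on day 2. RRM2 was its member with the smallest p, and GINS2, TYMS, UNG and CDC45 were among those that fell on day 1, by 1.45, 1.23, 1.14 and 1.01.

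Glucocorticoid targets had a median of 0.72 on day 1 and -0.064 on day 2. Of 15 tested, 10 rose and SGK1 fell on day 1, beside 17.1% and 12.9% of all genes. A negative difference between the days passed in 7, beside 7.51% of all genes. The 10 ranged from 7 to 10 with 1 library left out and became 3 without 8 h and 20 h together. The 7 became 2 without 28 h, 3 without 24, 32 or 48 h, 4 without 36, 40 or 44 h and 0 without 8 h and 20 h, and SGK1 did not pass without 8, 20 or 24 h. FKBP5, a chaperone in the glucocorticoid receptor complex, measured 10.8, 13.3 and 13.1 then 17.3, 21.5 and 22.9 FPKM on day 1 (0.68), and 17.5, 16.0 and 14.4 then 13.96, 11.3 and 10.5 on day 2 (-0.40). SCNN1A, a sodium channel subunit and the member with the smallest p, rose by 1.72 on day 1 and had 0.29 on day 2. PER1, also on this list, did not pass on either day. Of 4 genes tested of the metallothionein list, small metal-binding proteins for the most part, MT1E, MT1X and MT2A rose on day 1 by 1.19, 1.51 and 1.41 and had -0.11, -0.0041 and 0.27 on day 2. These genes are near copies of each other.

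Inflammatory and NF-kB genes had medians of -0.13 and 0.44. Of 19 tested, 3 rose (SAA1, SAA2 and SOD2) and 6 fell (CCL2, IL11, LIF, NFKBIA, NFKB1 and PTGS2) on day 1, beside 17.1% and 12.9% of all genes. On day 2, 18 of the 19 had a positive sign and 5 stood higher late with an unadjusted p under 0.05, beside 3.34% of all genes. The difference between the days passed in 7, all positive, beside 5.3% of all genes. These became 0 without 28 h, 1 without 8, 32, 44 or 48 h, 2 without 24 h, 3 without 36 h or with no filter, 4 with a filter of 5 FPKM and 0 without 8 h and 20 h. The 6 falls became 3 without 8 h, and the day 1 median was 0.0027 with a filter of 5 FPKM. SAA1, a serum amyloid gene, went from 1.25 FPKM at 4 h to 566 at 48 h, and SAA2 is nearly identical to it in sequence. SOD2, the mitochondrial superoxide dismutase, went from 48.6 to 297 FPKM and stood between 44.9 and 66.9 at pH 7.4. Immediate early genes and ERK feedback genes had -0.31 and 0.17, with 2 up and 7 down of 19 on day 1. Between the days 5 differences passed as positive and 2 as negative, beside 5.3% and 7.51% of all genes. The 5 became 1 without 8, 24, 28, 36, 44 or 48 h, 2 without 32 h and 0 without 8 h and 20 h, and the 7 became 4 without 8 h or 24 h. FOSB was the member with the smallest p, 0.64 and 0.53.

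ATF4 targets, which serve amino acid synthesis and stress responses, had 0.32 and 0.23. Of 30 tested, 7 rose and 3 fell on day 1, beside 17.1% and 12.9% of all genes, and 28 had a positive sign on day 2. The 7 became 3 without 8 h, 4 without 4 h and 13 without 12 h. TRIB3, the member with the smallest p, went from 2.49 FPKM at 4 h to 26.9 at 48 h, with 0.92 and 0.73 on the 2 days. DDIT3, which encodes the stress factor CHOP, had opposite signs: it measured 40.0, 52.8 and 48.8 then 33.4, 35.1 and 33.0 FPKM on day 1 (-0.46), and 44.8, 48.7 and 79.0 then 105, 144 and 177 on day 2 (1.30), a difference between the days of 1.76 (adjusted p = 0.011).

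The 5 MondoA targets all had positive signs on both days, with medians of 0.88 and 0.39, and 4 rose on day 1. TXNIP, the best known of them, measured 26.2, 87.2 and 169 then 277, 220 and 199 FPKM on day 1, and 166, 201 and 228 then 250, 256 and 249 on day 2, with no overlap within either day, and at most 8.17 at pH 7.4. FOXO targets had 0.53 and 0.073 with 6 up and 1 down of 12 on day 1, p53 targets 0.51 and 0.20 with 6 up and 3 down of 21 (DDB2, a DNA damage sensor, had the smallest p and its 6 late values, 82.3 to 106 FPKM, all lay above its 6 early values), and lysosome and autophagy genes 0.24 and 0.16 with 6 up and 0 down of 28. Of all genes 17.1% were called up and 12.9% down on day 1. For p53 targets the counts were 12 up without 12 h (median 0.94) and 4 up and 5 down without 4 h (median 0.21). The 6 of the lysosome list became 2 without 8 h or 24 h and 3 with no filter, the 6 of the FOXO list 4 without 4, 20 or 24 h, and the 4 MondoA targets 2 without 4, 8 or 20 h. The mTORC1 pathway list had 0.12 and 0.21 with 3 up and 1 down of 27. NPRL2, a subunit of a complex that restrains mTORC1, went from 18.4 to 164 FPKM.

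Heat shock genes had negative values on both days, with medians of -0.48 and -0.23. Of 13 tested, 8 fell and none rose on day 1, beside 12.9% and 17.1% of all genes. On day 2, 12 had a negative sign, 6 of them with an unadjusted p under 0.05, beside 4.1% of all genes. The 8 became 4 without 8 h, 5 without 20 h or 24 h, and 2 without 8 h and 20 h together. HSPA8, the constitutive Hsp70, measured 1820, 2464 and 1969 then 1883, 1305 and 1470 FPKM on day 1 (-0.43), and 1378, 1187 and 1104 then 936, 857 and 767 on day 2 (-0.52). HSPD1, the mitochondrial chaperonin, had -0.51 and -0.32. Actin and SRF genes (-0.30 and -0.080, 0 up and 7 down of 19), YAP and TEAD targets (-0.39 and -0.12, 1 up and 4 down of 15, with CTGF at -1.73 on day 1), and the proteasome list on day 2 (-0.17, 26 of 30 with a negative sign) also had negative medians. The 7 actin and SRF genes became 12 without 20 h or with GC trends removed, and the 4 YAP and TEAD targets 7 without 4 h. The extracellular matrix list had -0.093 and -0.025, with 1 of 20 called, and TNC had the smallest p.

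The next 7 lists had negative medians on day 1, and their day 2 medians lay between -0.033 and 0.13. Their counts of day 1 stand beside 17.1% up and 12.9% down of all genes. Oxidative phosphorylation genes had -0.21 and 0.024, with 2 up and 16 down of 43 and ATP5F1 first by p. Genes of mitochondrial DNA had -0.33 and -0.033, with 8 of 13 down, and after quantile normalization 1 rose and 2 fell. Glycolysis and hypoxia genes had -0.28 and 0.023, with 3 up and 10 down of 34 and LDHA first by p (-0.29 and -0.32). Ribosome biogenesis genes had -0.29 and 0.033, with 2 up and 9 down of 28 and NCL first by p. Fatty acid synthesis genes had -0.43 and 0.13 with 1 up and 4 down of 11 (ME1 first by p), NRF2 targets -0.35 and -0.014 with 1 up and 4 down of 16, and pH handling genes -0.31 and 0.054 with 0 up and 4 down of 12. CA12, a carbonic anhydrase on that list, went from 19.8 FPKM at 4 h to 2.45 at 24 h (-1.79) and stood between 1.72 and 2.93 on day 2. Without 8 h and 20 h together the falls of day 1 became 5 for oxidative phosphorylation, 0 for mitochondrial DNA, 5 for glycolysis and hypoxia and 0 for fatty acid synthesis. With 1 library left out they were as few as 8 (without 24 h), 5 (without 4, 20, 24, 28 or 32 h), 5 (without 8 h or 24 h) and 1 (without 4 h) in the same lists. The day 2 sign of the NRF2 list flipped under upper-quartile scaling and the day 2 median of the mitochondrial DNA list was at 0 under quantile normalization.

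The remaining lists had day 1 medians between -0.20 and 0.14, and their counts stand beside the same 17.1% up and 12.9% down of all genes. Ribosomal proteins had -0.11 and -0.020 with 1 of 79 called on day 1 (15 without 16 h), and both signs turned after quantile normalization. Cholesterol synthesis genes had 0.017 and -0.040 with 3 up and 8 down of 24 (0 up without 24 h, 4 down without 8 h), and the day 1 sign turned under each of the 3 other scalings. Endoplasmic reticulum stress genes had -0.12 and 0.14 with 1 up and 3 down of 18 (SYVN1 first by p; 0 down without 8, 20, 24, 28, 32, 44 or 48 h), interferon-induced genes 0.091 and 0.15 with 1 up and 2 down of 9 (IRF9 first by p), clock protein kinases and ligases 0.14 and -0.036 with 3 up and 2 down of 10 (PPP1CA first by p), and housekeeping genes -0.20 and -0.10 with 3 up and 5 down of 12. The proteasome list had -0.0012 on day 1 with 4 up and 2 down. Median differences of the lists carry no test, and some genes stand on more than 1 list. The counts of signs on day 2 stand beside a median difference of 0.018 over all genes that day, and carry no test either.

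**Figure D5:**
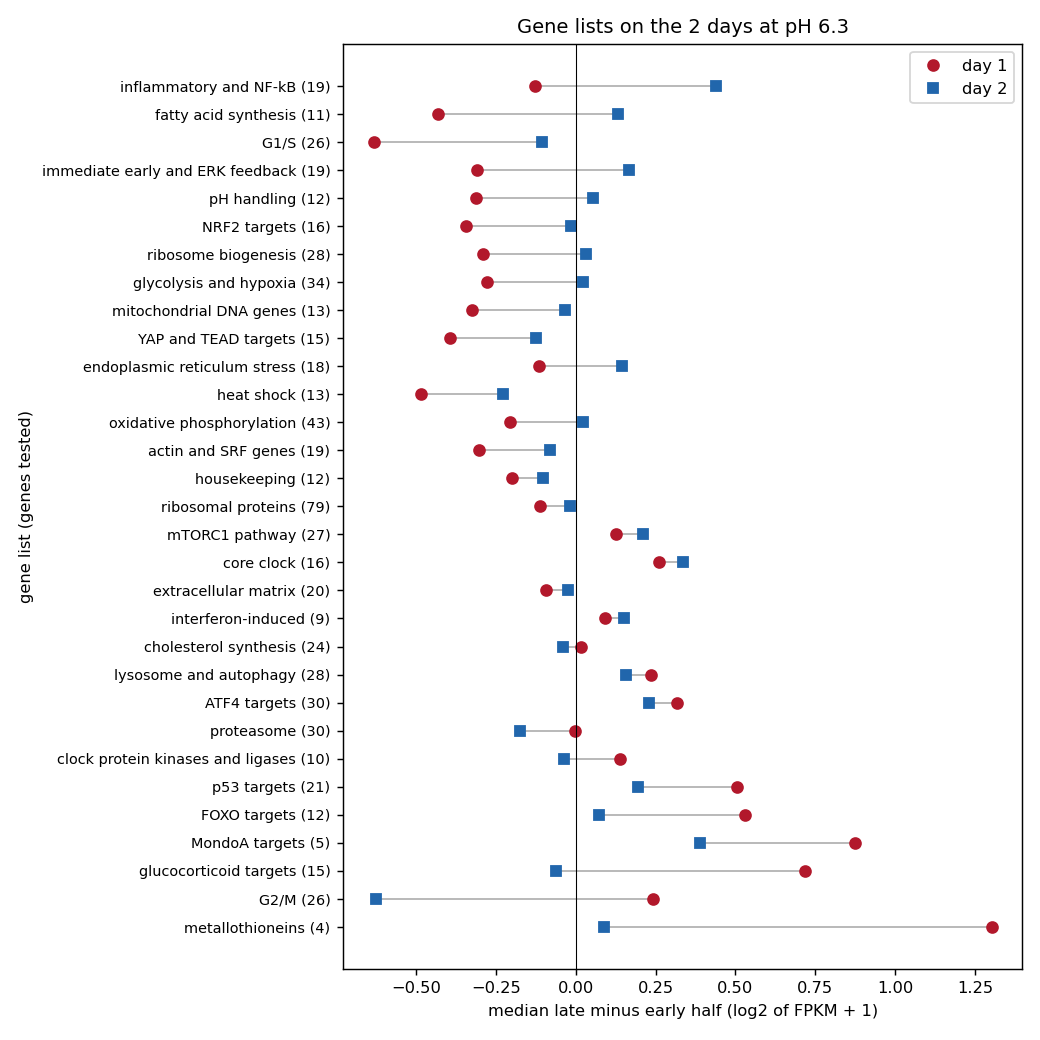
Median late minus early difference in log2(FPKM + 1) of 31 gene lists at pH 6.3 on day 1 (circles) and day 2 (squares), with the number of genes tested after each name and lists ordered by the difference between the days. The G2/M list crosses from 0.24 to -0.63 and the inflammatory list from -0.13 to 0.44, while the ATF4 list has 0.32 and 0.23.

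Against pH 7.4, 2031 genes (17.5%) had an unadjusted p under 0.05 for the difference in half-day difference, although only ARNTL and MMRN2 passed. At pH 7.4 taken alone no gene passed for the half-day difference (1713 with an unadjusted p under 0.05, smallest adjusted p 0.11). The genes next in rank besides TEF did not pass (adjusted p = 0.18 each). SAA1 and RALGDS stood higher late in acidic medium relative to pH 7.4 by 2.15 and 1.06, and ARSJ, CPQ and BARD1 had differences of -1.37, -0.79 and -1.85. BARD1, the partner of BRCA1, measured 11.4, 7.83 and 13.7 then 4.18, 3.65 and 3.45 FPKM on day 2 at pH 6.3 and 7.62, 25.7 and 18.0 then 35.4, 23.0 and 17.8 at pH 7.4. In a fit of all 24 libraries with an interaction term, 22 genes passed (5 positive and 17 negative).

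Transcripts of mitochondrial DNA made up 14.4 ± 1.15% (SD, n = 6) of summed FPKM in the early hours and 13.2 ± 1.5% in the late hours. The difference of -1.2 percentage points had p = 0.17 in a two-sided exact permutation test that exchanged half-days within each day (400 arrangements, smallest possible p 0.005). By day it was -2.41 points on day 1, with 16.6% at 4 h and 10.6% at 20 h, and 0.0055 points on day 2. Ribosomal protein transcripts made up 16.3 ± 1.43% and 16.4 ± 1.51% (difference 0.032 points, exact permutation p = 0.94).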

How the data were processed

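Polyadenylated RNA of U2OS Arntl::dLUC cells was sequenced in 26 libraries, 1 per pH and hour, and the 12 at pH 6.3 from 4 to 48 h were compared here, with the 12 at pH 7.4 for reference. The authors deposited 1 table of FPKM values per gene, with STAR and Cufflinks and the build hg38 named in the submitters' processing notes and versions and annotation not given in the sources used here. FPKM scales each library to its own total, so a change in a few abundant transcripts shifts all others, and values are not counts, so no count test was run.

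Of 19806 rows, 102 were dropped as repeats of 101 symbols (the row with the highest mean was kept), and 11592 genes that averaged 1 FPKM or more in the 12 acidic libraries were tested as log2(FPKM + 1), a scale that understates changes of low genes. limma 3.58.1 in R 4.3.3 with a mean-variance trend gave the half-day difference with day as a block, the difference on each day, the difference between the days, and the difference between the media over within-hour pairs, each with Benjamini-Hochberg adjustment over all genes at 0.05. Shares of summed FPKM were compared by exact permutation within days (scipy 1.17.1). Fragment depth was estimated from the steps of low values over 1832 single-transcript genes, where 86.4 to 94% of values lay within 0.1 of a whole number in the acidic libraries. The fits were tested on simulated data.

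Named genes were all core clock genes, 10 of the same sign on both days in each direction and 4 in each direction against pH 7.4 (filled by the smallest unadjusted p where too few passed; at least 5 FPKM in the mean of the higher half-days), 6 of opposite signs in each direction (at least 5 FPKM in the highest of the 4 half-day means), and, at any level, the member with the smallest p of every other list and TXNIP, TSC22D3, PER1 and DBP. The members and lists were chosen with earlier results of these data known. Alternatives were another pseudocount (0.1), filter (none, 5 FPKM, all libraries), scaling (upper quartile, quantile, GC trend by loess), blocks for collection session, a line in time, and leaving out libraries. Promoter sequences are RefSeq's (GRCh38.p14). The 52 h libraries entered no comparison. The values of 1 listed clock gene are not reported here.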

Additional observations from a re-analysis of the deposited data

Results flagged for a closer look

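In 10 of 170 groups of 6 libraries 1 library stood apart from the other 5. A rate of 1 in 20 groups would flag about 8.5. The 6 libraries are different hours of a time course and not replicates, so that rate need not hold, and a flagged value may lie on a gene's course. In the early hours at pH 6.3, 12 h was high for PER2 (8.626 FPKM, others 0.84 to 2.63), CRY1 (94.78, others 21.9 to 48.5) and DBP (18.56, others 2.71 to 7.46). The 4 h library was high for BHLHE41 (96.06 FPKM), EGR1 (74.62), MT-CO3 (11266.4) and the share of mitochondrial DNA transcripts (16.62%). DDIT3 was high at 36 h (78.97 FPKM, others 40.0 to 52.8). In the late hours, PER1 was high at 20 h (132.4 FPKM, others 17.0 to 49.8) and NR1D2 at 16 h (65.67, others 28.2 to 35.2). The 20 h library is also the one with the strongest GC trend among the 12, and its part in the PER1 value was not tested.

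The half-day difference differed between the media, by the limma test of the difference, for ARNTL (-1.842 on the log2 scale) and MMRN2 (2.246). Between the days, the limma test of day 2 minus day 1 passed for the following genes. Of the genes chosen for opposite signs, EGR1 had 3.506, SEPP1 2.838, DUSP2 2.693, ARAP2 2.626, TGFBI 2.502 and ADAMTS6 2.36, and TSC22D3 had -3.609, SMIM14 -2.425, ERCC5 -2.394, ZNF226 -2.267, SORBS2 -2.209 and ZNF287 -2.163. Of those named for the same sign, HIST2H2BE had -0.855, ARRDC4 -1.228 and GOLGA3 -1.084. Other members gave BHLHE40 1.02, PPP1CA 0.8644, CTGF 1.221, CA12 1.463, SCNN1A -1.436 and DDB2 -0.8248. Of the genes chosen after their values were seen, PDK4 had -2.124, RASSF9 2.248, CCNB1 -0.7776, BUB1 -1.477, E2F1 1.546, DDIT3 1.762 and FKBP5 -1.078.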

How the results depend on the processing

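For the half-day difference over both days, where 0 genes passed, 90 passed with GC trends removed (29 higher, 61 lower), 311 with collection session as a random block (140 and 171), 1 with the days averaged per session, and 1325 with each half-day at its own mean, a fit chosen after seeing the data. The random block used a correlation within sessions of -0.162, which narrows the error. Leaving out 1 library gave 0 to 37 (37 without 16 h, 34 without 40 h). For the difference between the days, 2338 passed with GC trends removed (1170 and 1168), 968 with session as a fixed block (389 and 579), 0 without 8 h and 20 h, and 273 to 2840 with 1 library left out. These were 426 without 8 h, 2840 without 12 h, 576 without 24 h, 273 without 28 h, 457 without 32 h, 712 without 36 h, 982 without 40 h, 600 without 44 h and 411 without 48 h. On day 1, 1390 passed without 8 h and 20 h (748 and 642), and 1879 (without 8 h) to 4343 (without 12 h) with 1 library left out, with 2200 without 24 h. On day 2, 0 to 4 passed (4 without 40 h). Against pH 7.4, 1 passed with a pseudocount of 0.1, 1 with no filter, 0 without 8 h and 20 h, 22 in the fit of 24 libraries (5 and 17), and 1 to 2 with 1 library left out. The difference in the ribosomal protein share turned to -0.247 points without 8 h and 20 h. Fits without libraries hold fewer samples, but their counts went up as well as down, and the cause was not tested for any setting.

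Signs of small clock gene differences turned. The half-day difference of NR1D1 became 0.0584 without 8 h and 20 h and 0.36 with a line in time, and that of NR1D2 0.0506 and 0.205. With the line in time RORA became -0.0112, NFIL3 -0.267 and S100A2 0.118. With 1 library left out NPAS2 ranged from -0.198 to 0.0478, NR1D1 from -0.229 to 0.27 and NR1D2 from -0.185 to 0.0799. The difference between the days became -0.00665 for PER1 with GC trends removed, 0.0996 for PER2 without 8 h and 20 h, and 0.0181 (upper-quartile scaling) and 0.288 (without 8 h and 20 h) for BHLHE41. With 1 library left out it ranged from -0.554 to 0.702 for PER1, -0.818 to 0.315 for PER2, -0.999 to 0.0318 for CRY1, -0.354 to 0.0616 for RORA, -0.227 to 0.532 for DBP, -0.323 to 0.535 for TEF and -0.446 to 0.24 for BHLHE41. The share of genes with the same sign on both days ran from 45.3 to 53%. Among the values of named genes under all settings, 1687 held their sign and side of the threshold, 96 came to pass, 59 ceased to pass and 42 changed sign.

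The labels carry no replicate number that pairs early with late libraries, so no replicate block was fitted. The media were paired by hour, and dishes 24 h apart by session in the fits above. Each half-day of a day holds 3 libraries, and the part of depth in the precision was not tested.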

Other observations

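The libraries at 52 h, which belong to neither half-day, gave 19.99 FPKM of ARNTL at pH 6.3 and 19.84 at pH 7.4. MMRN2 measured 7.777 and 2.209 FPKM, PER1 35.74 and 6.108, and BHLHE40 116.6 and 51.5 in the same order. TSC22D3 measured 161.9 FPKM at pH 6.3 and 7.794 at pH 7.4, PDK4 7.781 and 1.743, and DDIT3 217.9 and 18.01. These are single libraries with no replicate.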
